A study of Schizosaccharomyces pombe with 10 samples.

Results

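Small nuclear RNAs (snRNAs) and small nucleolar RNAs (snoRNAs) are short, abundant non-coding RNAs of the nucleus. The snRNAs U1, U2, U4, U5 and U6 form the spliceosome with their proteins and remove introns from pre-mRNA. Box C/D and box H/ACA snoRNAs guide 2′-O-methylation and pseudouridylation of ribosomal RNA, and a few of them, such as U3, U14 and U17 (snR30), are needed for the cleavage of the ribosomal RNA precursor. In yeasts these genes are among the most heavily transcribed loci, mostly by RNA polymerase II, while U6 is made by RNA polymerase III.

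The ChIP-seq signal over these genes in fission yeast (Schizosaccharomyces pombe) was followed through 10 libraries. The members were all gene IDs on chromosomes I, II and III that begin with SPSNORNA or SPSNRNA in the deposited window table, which gave 27 of 6073 gene IDs. They comprised 20 SPSNORNA genes in 58 windows and 7 SPSNRNA genes in 43 windows, out of 125720 windows on the 3 chromosomes. The windows were 200 bp long and began every 100 bp, and the windows of a gene ID were averaged.

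The libraries addressed whether Myo1, the class I myosin of actin patches and endocytosis, associates with chromatin, with cells kept in low or high phosphate. Myo1-GFP libraries came from a strain whose Myo1 carried green fluorescent protein, with 3 replicates in low phosphate (YES LowPi) and 3 in high phosphate (YES). NoIP libraries came from a strain labelled wild-type, with 2 replicates in low phosphate and 2 in high phosphate. All cells spent 4 h in their medium at 30°C and were then fixed in 3% formaldehyde for 30 min. The labels describe the same GFP-Trap bead pulldown for every library, so whether NoIP means untagged cells or chromatin without a pulldown cannot be told, and the strain differs wherever the 2 kinds of library are compared. Nothing states that replicates were separate cultures, and p-values then measure only the spread between libraries.

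Replicate 3 of Myo1-GFP in both conditions was shallow. If the smallest step of a library is read as 1 read, its median window held 11 reads in low phosphate and 8 in high phosphate, against 64 to 311 in the other 8 libraries, which are called the 8 deeper libraries. Results are given with and without those 2 libraries. Both belonged to Myo1-GFP, and no NoIP library was as shallow.

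The ID prefix did not separate the 2 kinds of RNA fully. The RefSeq annotation of ASM294v3 names 5 of the 7 SPSNRNA genes as spliceosomal snRNAs: snu1 (U1), snu2 (U2), snu4 (U4), snu5 (U5) and snu6 (U6). It names the other 2, snu3 and snu32, as the nucleolar RNAs U3 and U3B. Of the 20 SPSNORNA genes, 12 are annotated as box H/ACA RNAs and 8 carry no box in the annotation, U14 and U17 among them. By the letters of the annotated gene, TGATGA in the first 25 bases together with CTGA in the last 20, as in box C and box D, occurred in 5 of those 8 and in 0 of the 12 H/ACA genes, against 0.23% of 12606 annotated genes of 45 bases or more. The letters ACA within the last 8 bases occurred in 8 of the 12 H/ACA genes, in 2 of the other 8 and in 10.1% of annotated genes. These searches read the RNA strand only.

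The sequences of 5 genes named in the results are given 5′ to 3′ as DNA of the RNA strand, from RefSeq ASM294v3. U2 is the one gene past the test with all libraries, and U1 and U6 stand for the other spliceosomal RNAs. U14 and snR93 are the snoRNA gene and the H/ACA gene with the highest mean signal. In U2 (I:959370-959556, minus strand) capitals mark GTAGTA, the stretch that pairs with the intron branch site, and TTTTTG, a run of the kind bound by Sm proteins. In U1 (II:3020205-3020353, plus strand) capitals mark ACTTACCT, which pairs with the 5′ splice site, and TTTTTG. In U6 (I:2562276-2562419, minus strand) capitals mark the 2 annotated exons, 94 bases in all, which flank an intron of 50 bases. In U14 (II:1308634-1308745, plus strand) capitals mark TGATGA and CTGA, and in snR93 (II:3172781-3172923, plus strand) the ACA that lies 3 bases from the annotated 3′ end.
snu2: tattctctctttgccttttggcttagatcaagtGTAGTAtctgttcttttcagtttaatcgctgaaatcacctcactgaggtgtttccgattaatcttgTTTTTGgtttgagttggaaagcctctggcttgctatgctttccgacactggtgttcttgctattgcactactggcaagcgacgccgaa
snu1: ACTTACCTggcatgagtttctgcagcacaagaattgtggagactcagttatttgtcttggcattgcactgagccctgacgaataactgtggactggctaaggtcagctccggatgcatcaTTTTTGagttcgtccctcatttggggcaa
snu6: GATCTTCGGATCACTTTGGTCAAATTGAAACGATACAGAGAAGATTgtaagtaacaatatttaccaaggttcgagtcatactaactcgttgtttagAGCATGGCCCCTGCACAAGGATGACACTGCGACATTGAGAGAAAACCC
snoU14: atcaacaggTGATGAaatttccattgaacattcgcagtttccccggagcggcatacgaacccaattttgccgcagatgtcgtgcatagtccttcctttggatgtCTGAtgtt
snR93: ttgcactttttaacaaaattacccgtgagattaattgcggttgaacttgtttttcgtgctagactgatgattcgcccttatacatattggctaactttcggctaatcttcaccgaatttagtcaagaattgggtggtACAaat
TTTTTG was found in 3 of the 5 spliceosomal snRNA genes, in 1 of the 2 U3 genes and in 3 of the 20 SPSNORNA genes, against 15.7% of 83811 genome tiles of 150 bases on a single strand.

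All 27 members were separate loci. The closest pair, snu2 and snu3, lay 28014 bp apart. No member lay inside a protein-coding gene on the same strand, and 2 (snR36 and snR96) overlapped one. Counting genes of any kind, 9 members overlapped a gene on the other strand: snu1, snu3, snu4, snu5, snoR69, snR10, snR36, snR96 and snR101. In addition, snR46 overlapped a gene on its own strand. ChIP signal carries no strand, so at all of these it cannot be assigned to either gene. The annotated genes were 120 to 256 bases long for SPSNRNA and 82 to 326 bases for SPSNORNA, which is near the size of a single window. Runs of 50 bases that occur elsewhere in the genome made up 6.30% of the windows of snu32 and 4.82% of those of snu3, and 0% in the other 25 members. By this measure, reads that fit another place touch the 2 U3 genes only. The longest stretch that snu3 and snu32 share is 31 bases. It sits at position 104 of snu3 and at position 225 of snu32, and the best match to snu3 began 122 bases after the annotated 5′ end of snu32, so distances from that end may be shifted for U3B.

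The level of a gene is the log2 of its mean window signal over the median window of the library, so that 0 is the median window and 1 is 2-fold above it. Most members stood above the median window, in NoIP as in Myo1-GFP libraries. In all 8 deeper libraries, 22 of 27 members lay above 0, against 26.9% of all gene IDs, 25.4% of 4722 protein-coding, 18.7% of 1094 SPNCRNA (other non-coding RNA) and 97.0% of 166 tRNA gene IDs. These shares describe the same libraries and share their depth. With the 2 shallow libraries included, 11 of 27 members lay above 0 in every library.

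The 7 SPSNRNA genes formed a narrow band. Their mean levels over the 10 libraries ran from 0.71 ± 0.37 for snu6 to 1.23 ± 0.36 for snu32 (SD, n = 10), with snu4 at 0.83 ± 0.35, snu1 at 0.85 ± 0.51, snu5 at 0.93 ± 0.55, snu3 at 0.97 ± 0.33 and snu2 at 1.20 ± 0.45. Each step in this order was smaller than the spread over libraries of either neighbour. The SPSNORNA genes were far more spread out. The highest were snoU14 at 1.62 ± 0.55, snR93 at 1.19 ± 0.22, snoR69b at 1.18 ± 0.26, snR30 at 0.94 ± 0.48 and sno12 at 0.88 ± 0.48. The lowest were snR40 at 0.37 ± 0.51, snR95 at 0.01 ± 0.71, snR96 at -0.04 ± 0.28, snR101 at -0.10 ± 0.25 and snoR54b at -0.27 ± 0.54. snoR54b was thus below the median window on average, at percentile 3.98 of all gene IDs, while snoU14 was at percentile 99.4. SPSNORNA genes were read from 1 to 5 windows each and SPSNRNA genes from 5 to 8, which limits the comparison of their spread and of their levels. For snR95, snR96 and snR36 there was 1 window, mostly outside the gene. That of snR95 runs from II:1468401 to 1468600, and its gene ends at 1468406. That of snR96 runs from I:1451401 to 1451600, and its gene ends at 1451437.

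**Figure D1:**
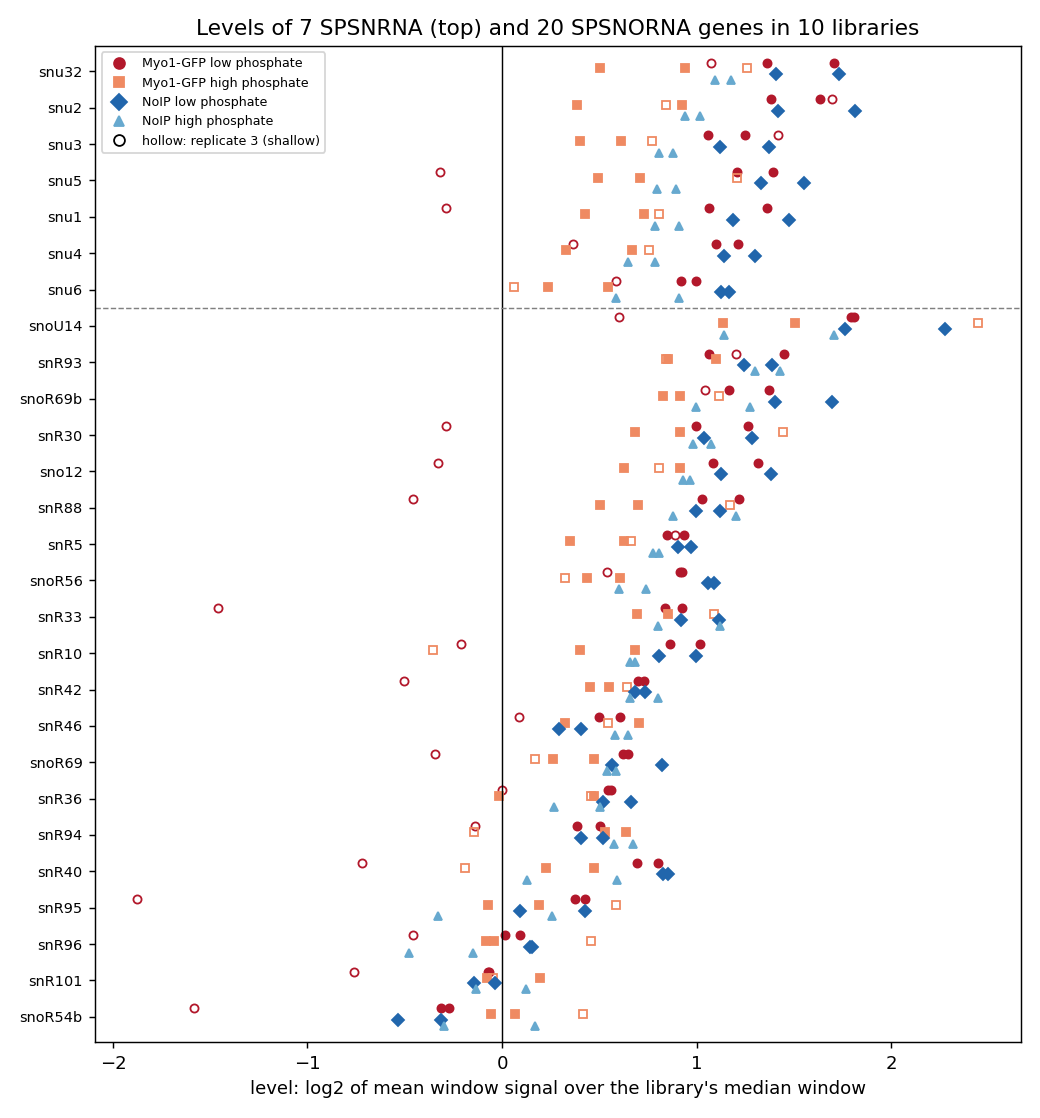
Level of each gene (x axis, log2 of mean window signal over the library's median window) in each of the 10 libraries, with the 7 SPSNRNA genes above the dashed line and the 20 SPSNORNA genes below it, each ordered by mean level; colour and marker give the group and hollow symbols the 2 shallow libraries. All 7 SPSNRNA genes lay right of 0 in the 8 deeper libraries, whereas snoR54b, snR101, snR96 and snR95 straddled 0 and the hollow circles of Myo1-GFP in low phosphate lay far to the left for most SPSNORNA genes.

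U14, which guides methylation of 18S rRNA and is needed for its maturation, had the highest level of all members. It stood at 1.79, 1.81 and 0.60 in the Myo1-GFP low phosphate libraries, against 1.13, 1.50 and 2.45 in the Myo1-GFP high phosphate libraries. In NoIP libraries it stood at 2.28 and 1.76 in low phosphate, against 1.71 and 1.14 in high phosphate. The 2 shallow libraries were the lowest and the highest of the 10. The other 4 low phosphate libraries lay above the other 4 high phosphate libraries.

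snR93, a box H/ACA RNA, stood at 1.06, 1.45 and 1.20 in Myo1-GFP low phosphate libraries, against 0.86, 1.10 and 0.84 in Myo1-GFP high phosphate libraries. Its NoIP levels were 1.39 and 1.24 in low phosphate, against 1.43 and 1.30 in high phosphate. The libraries of the 2 conditions overlapped.

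snoR54b had the lowest mean level of all members. Its levels were -0.27, -0.31 and -1.58 in Myo1-GFP low phosphate libraries, against -0.06, 0.06 and 0.41 in Myo1-GFP high phosphate libraries. NoIP libraries had -0.53 and -0.31 in low phosphate, against -0.30 and 0.17 in high phosphate. Low phosphate libraries thus lay below high phosphate libraries within both kinds. Its change of -0.61 ± 0.25 (SE) did not pass the test over both kinds of library (limma adjusted p = 0.299), though it did with quantile normalization and with libraries weighted by their fit (adjusted p = 0.0315 and 0.0301).

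Some properties that the ID does not fix were common to the members. The windows were poor in G and C, with a median of 32.7% for SPSNORNA (27.3% to 39.3%) and 32.3% for SPSNRNA (26.1% to 37.3%), against 36.1% for the 3 chromosomes, and 6 of the 27 members exceeded that value. The windows reach into the flanks of the genes and were not compared with other windows outside coding sequence. Across the 20 SPSNORNA genes the level in the 8 deeper libraries was nearly unrelated to GC (Pearson r = -0.20, Spearman rho = -0.07), whereas across the 7 SPSNRNA genes r was 0.80 and rho 0.68. Gene length gave r = -0.24 and rho = -0.30 across SPSNORNA genes, and r = 0.46 and rho = 0.32 across SPSNRNA genes. The number of windows gave r = 0.41 and rho = 0.43 across all 27 members. Within the classes it gave r = 0.26 and rho = 0.22 across SPSNORNA genes, and r = -0.16 and rho = -0.13 across SPSNRNA genes. These correlations are across genes that share libraries and carry no test.

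The annotation holds 53 SPSNORNA genes, and 33 of them have no window under their own ID in the table because the windows there carry other gene IDs. For 19 of the 33 these include an SPNCRNA ID. When the genes were read by windows centred inside them instead, 30 of the 33 had a value, with a median level of 0.62 in the 8 deeper libraries (0.03 to 1.44). The 19 members with such a window had a median of 0.66 by the same reading. The unlabelled snoRNA genes thus lay in the range of the labelled ones, and 25 of 30 were above the median window in all 8 deeper libraries. This covers the level only, and results on phosphate below are for the labelled genes. In the 8 deeper libraries the 2 conditions overlapped in most of the 30 unlabelled genes. All low phosphate libraries lay above all high phosphate libraries only in sno20, snR98, snR91 and snR92, all annotated as box H/ACA. The opposite order was found only in snoR38. Among all gene IDs these orders were found in 18.5% and 7.49%. snoR38 stood at 0.17 to 0.40 in low phosphate, against 0.47 to 0.73 in high phosphate. sno20 stood at 1.26 to 1.56 in low phosphate, against 0.46 to 0.81 in high phosphate.

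Signal around the genes had the form of a broad dome. The median over the 7 SPSNRNA genes lay within 0.25 of 0 at 500 bp before the annotated 5′ end, rose over the gene and was back near 0.3 or below 1000 bp past that end in all but 1 of the deeper libraries. In the 2 deeper Myo1-GFP libraries of each condition, it averaged 1.54 in low phosphate and 0.81 in high phosphate at 200 bp after the 5′ end. In NoIP libraries it averaged 1.46 in low phosphate and 1.13 in high phosphate there. As the annotated RNAs are at most 256 bases long, much of the dome lay past their 3′ ends. The highest 100 bp bin was sought from 500 bp before to 1000 bp after the 5′ end. It lay beyond the annotated 3′ end in 5 of 7 SPSNRNA and 15 of 20 SPSNORNA genes. That range reaches further past the 3′ end than before the 5′ end, so these counts alone do not show a shift towards the 3′ side. For snoR54b the bin lay at the edge of the range, and signal of neighbouring genes was not set apart.

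The dome of the SPSNORNA genes was lower. At 200 bp its median averaged 0.81 in low phosphate and 0.58 in high phosphate in the deeper Myo1-GFP libraries, and 0.84 in low phosphate and 0.78 in high phosphate in NoIP libraries.

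The low minus high difference of these medians was largest near the 5′ end. For SPSNRNA genes it peaked at 0.86 in the deeper Myo1-GFP libraries, 100 bp after the end, and at 0.74 in NoIP libraries, 100 bp before it. For SPSNRNA genes at 200 bp before the 5′ end, the deeper Myo1-GFP libraries averaged 0.96 in low phosphate and 0.27 in high phosphate, and NoIP libraries averaged 1.16 in low phosphate and 0.64 in high phosphate. For SPSNORNA genes the same position gave 0.56 in low phosphate and 0.15 in high phosphate in the deeper Myo1-GFP libraries, and 0.64 in low phosphate and 0.35 in high phosphate in NoIP libraries. At 400 bp after the 5′ end the low minus high difference of the SPSNORNA genes was 0.14 in Myo1-GFP and 0.03 in NoIP, and at 700 bp it was 0.02 in Myo1-GFP and 0.24 in NoIP. For SPSNRNA genes it was 0.59 in Myo1-GFP and 0.46 in NoIP at 400 bp. These are medians over genes with no test.

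**Figure D2:**
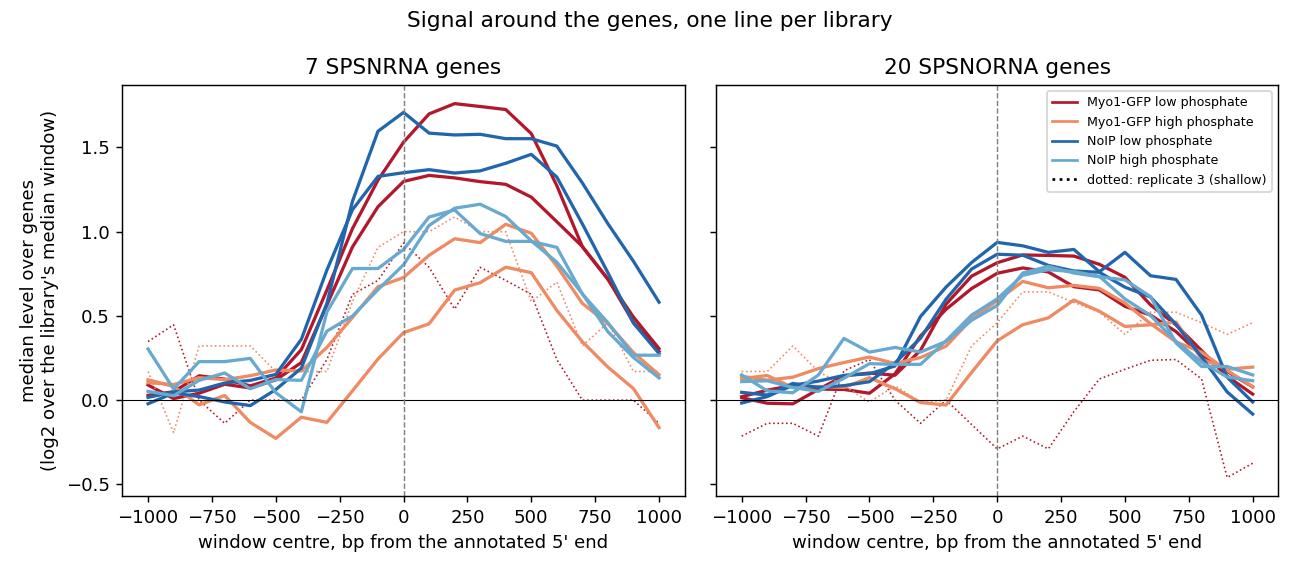
Median level over genes (y axis, log2 over the library's median window) by distance of the window centre from the annotated 5′ end (x axis, bp), for 7 SPSNRNA genes on the left and 20 SPSNORNA genes on the right, with 1 line per library, coloured by group and dotted for the 2 shallow libraries. The low phosphate lines of the 8 deeper libraries lie above the high phosphate lines over the SPSNRNA genes. Over the SPSNORNA genes they part most around the 5′ end.

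The 2 classes were then compared within each library. The difference of medians, snoRNA minus snRNA, was negative in 9 of 10 libraries and averaged -0.33 ± 0.27 (SD, n = 10). In Myo1-GFP it was -0.33, -0.54 and -0.89 in the low phosphate libraries, against 0.02, -0.08 and -0.24 in the high phosphate libraries. In NoIP it was -0.57 and -0.36 in low phosphate, against -0.20 and -0.15 in high phosphate. The low phosphate libraries did not overlap the high phosphate libraries in either kind. Over the 8 deeper libraries it averaged -0.45 ± 0.13 in low phosphate and -0.10 ± 0.10 in high phosphate (SD, n = 4 each). It carries no test, since it is a score over chosen members. The 2 classes also differed in windows per gene, and how far this contributes to the difference was not tested.

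Of the 2 medians, that of the snRNA genes differed more between conditions. In the 4 deeper low phosphate libraries the snRNA median averaged 1.28, against 0.71 in the 4 deeper high phosphate libraries, and the snoRNA median averaged 0.83 in low phosphate, against 0.60 in high phosphate. With the 2 U3 genes counted among the snoRNAs, which leaves 5 spliceosomal genes, the difference averaged -0.38 ± 0.12 in low phosphate and -0.07 ± 0.08 in high phosphate (SD, n = 4 each). The placing of U3 did not alter the direction.

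**Figure D3:**
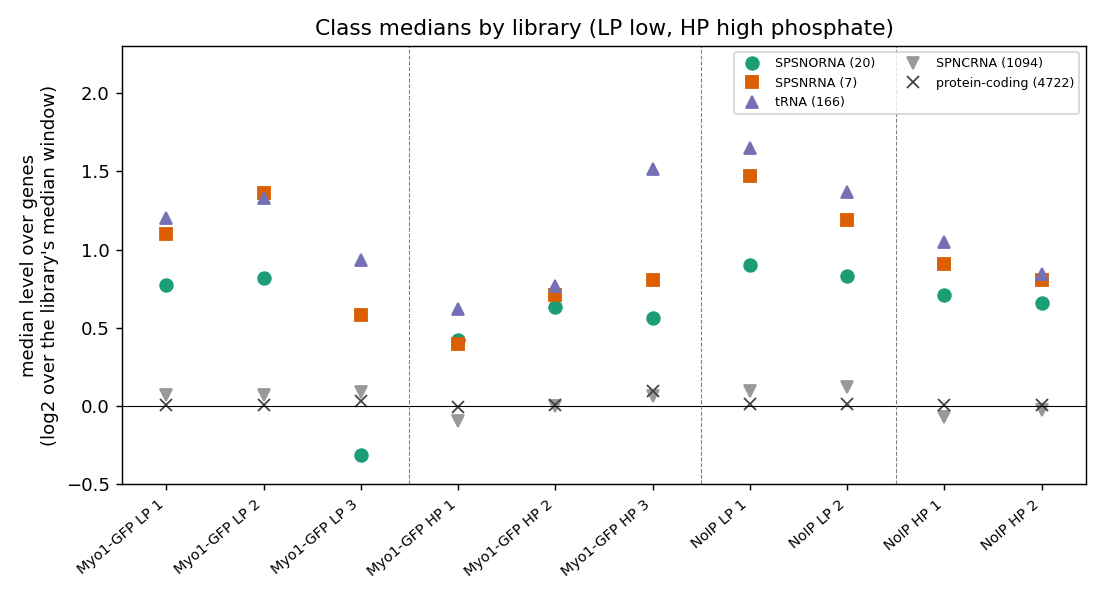
Median level over the genes of 5 classes (y axis, log2 over the library's median window) in each library (x axis), with the number of gene IDs of each class in the key. Protein-coding and SPNCRNA gene IDs stay within 0.13 of 0, tRNA gene IDs lie at or above the SPSNRNA genes in 9 of 10 libraries, and the SPSNORNA genes lie below the SPSNRNA genes in 9 of 10 and at -0.31 in Myo1-GFP low phosphate replicate 3.

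tRNA genes are made by RNA polymerase III. Their median was 0.93 to 1.33 in the 3 Myo1-GFP low phosphate libraries, against 0.62 to 1.51 in the 3 Myo1-GFP high phosphate libraries, and 1.65 and 1.37 in NoIP low phosphate, against 1.05 and 0.85 in NoIP high phosphate.

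Low and high phosphate were compared over both kinds of library, to ask whether phosphate goes with the signal whatever was pulled down. In limma (all 10 libraries, Benjamini-Hochberg over 6073 gene IDs) 1 of 27 members passed adjusted p under 0.05 and it was higher in low phosphate. This is a share near that of all gene IDs, 2.85% in either direction and 2.40% higher in low phosphate. That member was U2, the snRNA that pairs with the branch site. The change was positive in all 7 SPSNRNA genes, from 0.27 to 0.75 with a median of 0.46, and in 11 of 20 SPSNORNA genes, with a median of 0.09, beside a median of 0.00 over all gene IDs. Under quantile normalization the SPSNORNA median turned to -0.09 with 7 of 20 positive, and the SPSNRNA genes stayed positive in 7 of 7 with a median of 0.23. The one member called under that normalization was snoR54b, which was lower in low phosphate, against 0.988% of all gene IDs called lower.

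U2 stood at 1.38, 1.63 and 1.70 in Myo1-GFP low phosphate libraries, against 0.38, 0.92 and 0.84 in Myo1-GFP high phosphate libraries. In NoIP it stood at 1.81 and 1.42 in low phosphate, against 1.01 and 0.94 in high phosphate. All 5 low phosphate libraries lay above all 5 high phosphate libraries. The change was 0.75 ± 0.15 (SE), a 1.68-fold higher signal in low phosphate (limma adjusted p = 0.034). The call was lost without any 1 of the 8 deeper libraries (adjusted p = 0.0515 to 0.19), under quantile normalization (0.135) and with windows centred inside the annotated gene (0.106), while the change stayed between 0.49 and 0.84 in these fits.

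The windows along U2 show where this difference lay. In the 5 low phosphate libraries, the window that starts at I:959601, on the 5′ side of this minus-strand gene, stood at 1.33, 1.47 and 2.03 in Myo1-GFP and at 1.86 and 1.39 in NoIP, against 0.01, 0.80 and 0.17 in Myo1-GFP and 0.74 and 0.66 in NoIP in high phosphate. The window at I:959001, which lies past the 3′ end and carries no gene ID, stood at 1.38, 1.92 and 0.79 in Myo1-GFP and at 1.79 and 1.50 in NoIP in low phosphate, against 1.01, 1.33 and 0.58 in Myo1-GFP and 1.69 and 1.46 in NoIP in high phosphate. Of 16 windows read between I:958601 and I:960300, all low phosphate libraries lay above all high phosphate libraries in the 6 that start at I:959301 to I:959801, which span the gene and its 5′ flank, and the conditions overlapped in the others on both sides. In the window at I:960101, further out on the 5′ side, NoIP stood at 0.83 and 0.56 in low phosphate, against 1.36 and 0.90 in high phosphate. The windows under the ID of U2 run from 959201 to 959900 and so reach further past the 5′ end than past the 3′ end, and its gene-level value depends on which windows carry the ID.

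U3, which directs early cleavages of the rRNA precursor, came next. It stood at 1.06, 1.25 and 1.42 in Myo1-GFP low phosphate libraries, against 0.40, 0.61 and 0.77 in Myo1-GFP high phosphate libraries. Its NoIP levels were 1.37 and 1.12 in low phosphate, against 0.88 and 0.81 in high phosphate. The libraries of the 2 conditions did not overlap, but the change of 0.52 ± 0.12 (SE) missed the threshold (limma adjusted p = 0.0607). It passed in 8 of 23 alternatives, among them the 8 deeper libraries (0.00729), no centring (0.0387) and leaving out either shallow library (0.0331 and 0.0401).

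U6, the catalytic snRNA of the spliceosome, stood at 0.92, 0.998 and 0.58 in Myo1-GFP low phosphate libraries, against 0.23, 0.54 and 0.06 in Myo1-GFP high phosphate libraries. Its NoIP levels were 1.16 and 1.13 in low phosphate, against 0.91 and 0.58 in high phosphate. The conditions did not overlap within either kind of library, and the change of 0.48 ± 0.13 (SE) did not pass (limma adjusted p = 0.113).

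The other SPSNRNA genes stood apart in 1 shallow library. U1, U5 and U4 stood at -0.29, -0.32 and 0.36 in Myo1-GFP low phosphate replicate 3, against 1.06 to 1.39 in the other 2 Myo1-GFP low phosphate libraries. U3B stood at 1.07 there, against 1.36 and 1.70 in the other 2. Over all 10 libraries their changes were 0.27 ± 0.29 for U1, 0.28 ± 0.32 for U5, 0.41 ± 0.18 for U4 and 0.46 ± 0.19 for U3B (SE), and none passed (limma adjusted p = 0.288 to 0.768).

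In the 8 deeper libraries the difference was wider spread. All 4 low phosphate libraries lay above all 4 high phosphate libraries in 7 of 7 SPSNRNA genes and in 8 of 20 SPSNORNA genes, against 18.5% of all gene IDs and 63.9% of tRNA gene IDs. With all 10 libraries this held for snu2, snu3 and snR5, against 5.78% of all gene IDs. limma on the 8 deeper libraries called 14 members, all higher in low phosphate, against 15.2% of all gene IDs called in that direction. They were the 7 SPSNRNA genes, with changes from 0.48 ± 0.10 for U6 to 0.75 ± 0.15 for U2 (SE, limma adjusted p = 0.00312 to 0.0175), and 7 SPSNORNA genes. Among tRNA gene IDs 121 of 166 passed in that fit, all upwards, with a median change of 0.54 beside 0.58 for SPSNRNA and 0.27 for SPSNORNA genes. When limma instead weighted the 10 libraries by their fit (array weights), 12 members were higher and 1 was lower in low phosphate, against 15.6% and 3.90% of all gene IDs.

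U5, whose RNA aligns the exons during splicing, had the smallest adjusted p in the 8 deeper libraries. It stood at 1.21 and 1.39 in Myo1-GFP low phosphate, against 0.49 and 0.71 in Myo1-GFP high phosphate, and at 1.55 and 1.33 in NoIP low phosphate, against 0.80 and 0.89 in NoIP high phosphate. The change was 0.65 ± 0.09 (SE, limma adjusted p = 0.00312). U4, which holds U6 inactive by pairing with it, changed by 0.58 ± 0.10 (adjusted p = 0.0052), and U1 by 0.56 ± 0.12 (adjusted p = 0.0128).

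The 7 SPSNORNA genes called in the 8 deeper libraries were snR40 (0.44 ± 0.11), snoR69b (0.41 ± 0.11), snoR56 (0.40 ± 0.07), sno12 (0.37 ± 0.11), snR10 (0.31 ± 0.09), snR96 (0.29 ± 0.07) and snR5 (0.28 ± 0.08, all SE), with limma adjusted p between 0.00695 and 0.0465. They include box H/ACA RNAs and genes with no annotated box. U14 had a larger change of 0.54 ± 0.18 that did not pass (adjusted p = 0.0769). 4 SPSNORNA genes had negative changes, and the most negative was snoR54b at -0.33 ± 0.10 (adjusted p = 0.0604).

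**Figure D4:**
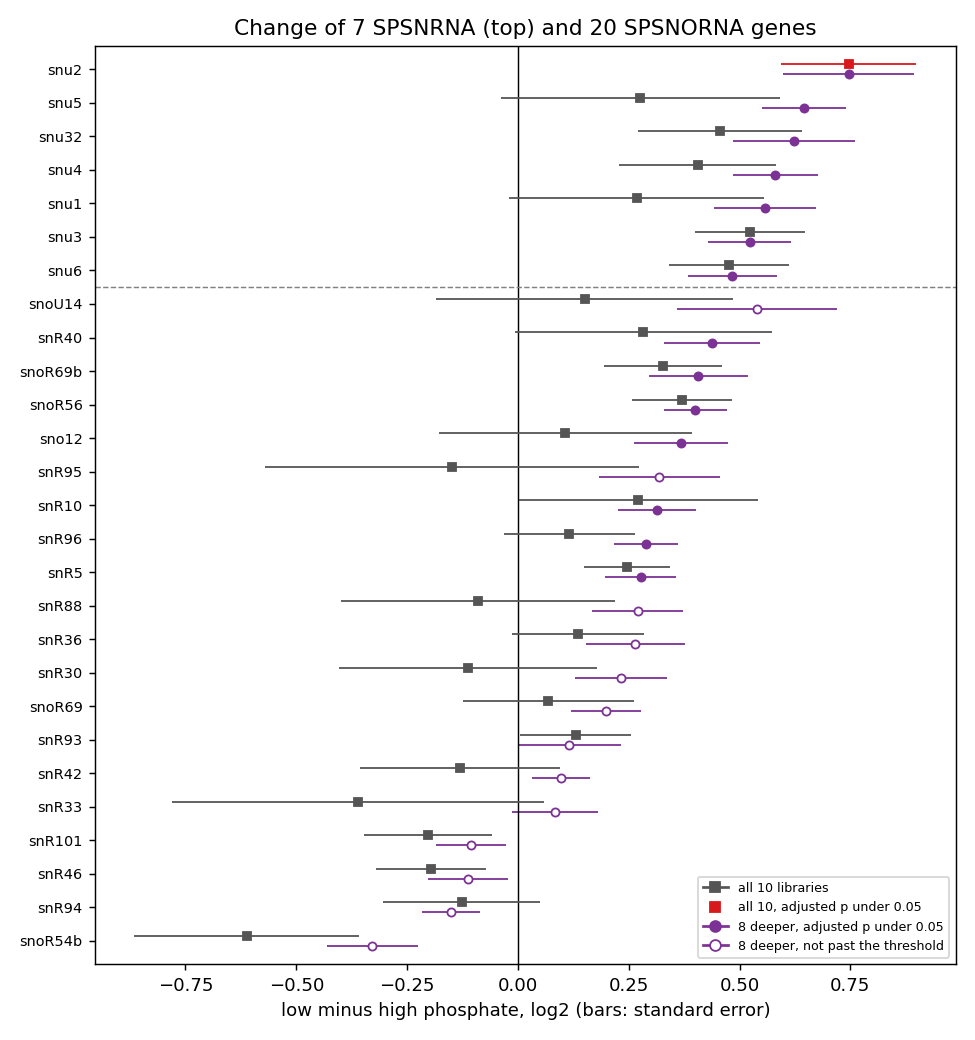
Low minus high phosphate over both kinds of library (x axis, log2, bars are standard errors) for each gene, with squares from all 10 libraries, red where adjusted p was under 0.05, and circles from the 8 deeper libraries, filled where adjusted p was under 0.05. U2 is the one red square, and all 7 SPSNRNA circles are filled and lie between 0.48 and 0.75.

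Within Myo1-GFP libraries, low against high phosphate gave 0 members past the threshold in all 10 libraries, against 0.181% of all gene IDs, and 6 of 27 had an unadjusted p under 0.05. The smallest p-values were those of U2 (0.86 ± 0.19), U3 (0.65 ± 0.16) and U6 (0.56 ± 0.17, all SE), with limma adjusted p of 0.117, 0.137 and 0.248. In the 8 deeper libraries 3 members passed, U3, U4 and U5, against 5.68% of all gene IDs called upwards. For U5 the direction depended on the shallow libraries, with a change of 0.70 ± 0.13 without them (SE, limma adjusted p = 0.0248) and -0.04 with them (adjusted p = 0.974). With array weights 10 passed, against 13.2%, and of these U5 and snR88 (-0.195) were negative when all libraries counted equally.

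Within NoIP libraries the same comparison gave 0 members, against 0.346% of all gene IDs, and 2 of 27 had an unadjusted p under 0.05. The smallest p-values were those of U2 (0.64 ± 0.24), snoR56 (0.40 ± 0.17) and U3 (0.40 ± 0.19, all SE), with limma adjusted p of 0.498, 0.659 and 0.721. In the 8 deeper libraries 3 members passed, snoR56, snR96 and U5, against 7.97% of all gene IDs called upwards, and with array weights 1 passed, against 5.15%. No NoIP library was left out in that fit, so the NoIP changes were the same. Only the error differed, which is estimated from both kinds of library together.

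Set side by side over the 10 libraries, the median low minus high difference of the SPSNRNA genes was 0.48 among Myo1-GFP libraries and 0.48 among NoIP libraries. Over the 8 deeper libraries it was 0.66 among Myo1-GFP and 0.48 among NoIP libraries. For the SPSNORNA genes it was -0.11 among Myo1-GFP and 0.14 among NoIP libraries, and 0.33 among the 4 deeper Myo1-GFP libraries. The interaction of phosphate with kind of library, which tests the difference between these changes, called 0 members and 0% of all gene IDs in limma, where 1 member and 35 gene IDs had an unadjusted p under 0.05. The smallest p-values belonged to snR96 (-0.69 ± 0.30), snR93 (0.36 ± 0.25) and U14 (-0.89 ± 0.67, all SE), all with limma adjusted p = 0.999.

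Myo1-GFP was set against NoIP to ask whether the tagged myosin enriches these loci. In limma 0 members passed in either condition or over both, against 0% of all gene IDs in each of the 3 contrasts. An unadjusted p under 0.05 was found for 2 members and 131 gene IDs in high phosphate, for 0 members and 21 gene IDs in low phosphate, and for 1 member and 106 gene IDs over both. In high phosphate the change was positive, higher in Myo1-GFP, in 5 of 27 members, against 3211 of 6073 gene IDs, with a median of -0.18 beside 0.01 over all gene IDs. In low phosphate it was positive in 1 of 27 members, against 2642 of 6073 gene IDs and 7 of 166 tRNA gene IDs, with medians of -0.33 over members, -0.03 over all gene IDs and -0.35 over tRNA gene IDs. In the 8 deeper libraries it was positive in 4 members in high phosphate (median -0.19) and in 7 in low phosphate (median -0.05).

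U6 had the smallest p over both conditions. The levels given above amount to a change of -0.39 ± 0.14 (SE, limma adjusted p = 0.959), and Myo1-GFP libraries lay below NoIP libraries without overlap in each condition. In high phosphate alone the smallest p-values were those of U6 (-0.47 ± 0.19), snR93 (-0.43 ± 0.18) and snR96 (0.42 ± 0.21, all SE), all with limma adjusted p of 1. In low phosphate alone they were those of snoR69b (-0.36 ± 0.19), snoR56 (-0.28 ± 0.16) and U6 (-0.31 ± 0.19, all SE), with limma adjusted p = 0.978. Over both conditions snoR56 (-0.25 ± 0.11) and snoR69b (-0.27 ± 0.13) followed U6.

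Counted by order alone, 8 of 27 members in high phosphate had every Myo1-GFP library below every NoIP library, against 10.2% of all gene IDs, and 5 of 27 in low phosphate, against 12.9%. In high phosphate these were snu2, snu3, snu6, snR42, snR5, snR93, sno12 and snoR69, and the opposite order was found for snR96. In low phosphate these were snu6, snR40, snR96, snoR56 and snoR69b. Among 166 tRNA gene IDs, 6.02% had every Myo1-GFP library below every NoIP library in high phosphate and 54.2% in low phosphate.

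snR96 is read from a single window that overlaps a protein-coding gene. It stood at 0.01, 0.09 and -0.46 in Myo1-GFP low phosphate libraries, against -0.04, -0.09 and 0.46 in Myo1-GFP high phosphate libraries. NoIP libraries had 0.14 and 0.15 in low phosphate, against -0.48 and -0.15 in high phosphate. The 2 shallow libraries are its lowest and highest Myo1-GFP values, and rest on 8 reads in low phosphate and 11 in high phosphate.

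Genes for the protein partners and processing enzymes of these RNAs were read in the same way, from 6 lists of 36 symbols of which 29 were found. Their signal did not resemble that of the RNA genes, with mean levels from -0.36 to 0.41 and a median of 0.04. Over both kinds of library, 1 of 29 was higher in low phosphate and 0 were lower, a share near the 2.40% of all gene IDs that were higher, and the median change was -0.05. The box C/D proteins (0 of 4), the box H/ACA proteins (0 of 3), the Sm proteins (0 of 6), the Lsm proteins (0 of 7) and the cap and processing genes (0 of 4) had no call, and the U1 snRNP proteins had 1 of 5. In the other 6 contrasts 0 of 29 passed in limma.

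The one gene called was usp102, which encodes a protein of the U1 particle. It stood at 0.21, 0.36 and 1.06 in Myo1-GFP low phosphate libraries, against -0.88, -0.33 and -0.09 in Myo1-GFP high phosphate libraries. NoIP libraries had 0.52 and 0.53 in low phosphate, against -0.52 and -0.51 in high phosphate. No low phosphate library overlapped a high phosphate library, and the change was 1.01 ± 0.19 (SE, limma adjusted p = 0.0252). U1 itself did not pass in that fit.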

How the data were processed

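The authors deposited one table of window signal for 10 ChIP-seq libraries. The submitters' processing notes name Trim Galore 0.3.8, Bowtie2 2.2.4 and ASM294v2, and the study's methods, given for RNA-seq and ChIP-seq together, name SeqMonk for initial processing. Treatment of duplicate reads and of reads with several places is not given in the sources used here. Within a library 100% of deposited signal values lay within 0.1 of a whole multiple of its smallest value, so signal was taken as reads times a library factor, which the sources do not define. No count test was used.

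For each gene ID the mean signal of its windows was taken as log2(mean + 1) minus log2(median window + 1) of the library. The 6073 gene IDs on I, II and III with signal above 0 in at least 2 libraries were all tested in R 4.3.3 with limma 3.58.1 (lmFit, eBayes with trend, 4 group means, two-sided), with Benjamini-Hochberg adjustment and a threshold of 0.05. Contrasts share libraries. The test was also run on simulated libraries with the real depths and the same spread beyond counting error in every library. That run does not cover libraries of uneven quality, and nothing is concluded from it here.

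Names, strands and sequences came from the RefSeq annotation and genome of ASM294v3. Its 3 chromosomes are as long as those in the table (5579133, 4539804 and 2452883 bases). Of the gene IDs, 6003 were found in it, and each of the 27 members had a window that overlapped the gene of its ID, if only in part. Coordinates of windows are those of the table.

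Named are all SPSNRNA genes, the 5 highest and 5 lowest SPSNORNA genes by mean level, the 3 members with the smallest p per contrast and any past the threshold. Members called in the 8 deeper libraries, members listed by order and usp102 were named after their values were seen. The members, the gene lists and the tests were chosen with earlier results of these data known. Alternatives were another pseudocount, averaging, centring, normalization, filter, variance model, library weights, depth, window assignment, threshold, replicate block and leaving out each library. Plots were drawn with matplotlib.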

Additional observations from a re-analysis of the deposited data

How the results depend on the processing

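The comparison of low with high phosphate over both kinds of library called 1 member with all 10 libraries. It called 2 members without centring, 2 without the variance trend, 13 with array weights, 14 in the 8 deeper libraries, 0 with windows centred in the annotated gene and 0 at a threshold of 0.01. Leaving out each library in turn gave 0 to 6 members, with 6 when Myo1-GFP low phosphate replicate 3 was left out, 2 without Myo1-GFP high phosphate replicate 3 and 0 without any other. Within Myo1-GFP the count of 0 became 10 with array weights and 3 in the 8 deeper libraries. Within NoIP it became 1 with array weights and 3 in the 8 deeper libraries. The NoIP libraries and their changes were the same in these fits, and only the estimated error differed. The 8 deeper libraries with a pseudocount of 1000, chosen after seeing the data, gave 14, 3 and 3 members for these contrasts. Otherwise the cause of the changed counts was not tested beyond the removal of the libraries themselves. Over all gene IDs the count of 173 became 1112 in the 8 deeper libraries and 1187 with array weights.

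The 3 contrasts of Myo1-GFP with NoIP and the interaction called 0 members in every alternative. The difference between the class medians, -0.33, stayed within 1 SD in its 19 alternatives. These include the placing of the 2 U3 genes among the snoRNAs, which was chosen after seeing the data. Many of the 19 could hardly move the difference. Centring cancels within a library, the filter removed no gene ID, and leaving out 1 of 10 libraries shifts a mean little. The band of 1 SD (0.27) is also nearly as wide as the difference, so staying within it says little. Of the 3 members with the smallest p in each contrast, none reversed its direction in the alternatives of that contrast. Other members did: within Myo1-GFP, U5 turned from -0.04 to 0.70 in the 8 deeper libraries, and the SPSNORNA median from -0.11 to 0.33. Under quantile normalization the one member called over both kinds of library was snoR54b, lower in low phosphate (-0.58).

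With the replicate number as a block, the comparison over both kinds of library called 2 members, snu2 and snu3. The numbers were not taken to pair libraries, though the values do not settle this. Deviations of same-numbered Myo1-GFP libraries correlated between conditions at 0.0899, 0.184 and 0.176. Differently numbered ones correlated at 0.009, -0.0511, -0.236, -0.221, -0.12 and 0.273, the last for high phosphate replicate 2 with low phosphate replicate 1. Same-numbered NoIP libraries correlated at 0.506 and the others at -0.506. With 2 libraries per group these NoIP values must mirror each other. Fits without a NoIP replicate leave that group with 1 library, which is assumed to vary like the other groups. Depth limits the values of single genes in the 2 shallow libraries, and intervals from reads would cover counting error only.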
